A study of Mus musculus with 2 samples.

Results

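Solitary Nkx6.1 peaks are sites on chromosomes 1 to 19 whose centre lies more than 100 kb from the centre of every other peak in the deposited list. They numbered 2588 of the 15045 autosomal peaks, or 17.2% (16.6 to 17.8, exact Clopper-Pearson 95% interval), in a list of 15239 peaks in all. Nkx6.1 binding was measured by ChIP-seq, in which DNA bound by a factor is pulled down with an antibody and sequenced. The islets formed 1 set, taken from a mouse of C57Bl/6 background, and were split into 1 ChIP library (antibody RES273 against Nkx-6.1) and 1 input library, for which no antibody is given. Neither library has a replicate, so no test between samples was possible: differences are given as values, and every interval is for counting error or is taken over peaks at 95%. Peaks in 1 list share a library and are not replicates.

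Nkx6.1 is a homeodomain transcription factor of the nucleus. In the adult pancreas it is known mainly from insulin-producing beta cells, where it maintains beta cell identity and represses genes of other endocrine cells. Homeodomain factors read short AT-rich DNA motifs that occur very often in the genome, and binding sites in a tissue may lie alone or in groups around a gene. The deposited list carries positions and tag numbers and pairs no peak with a gene. Islet marker genes, promoters and peak sequences were therefore not analysed here, and sites are given by their position in the mm9 build.

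Members were chosen by the positions of the called peaks and by no other measured value, so their isolation is a description. The distance to the nearest listed peak had a median of 171 kb (quartiles 129 and 265 kb) and ran from 100.07 to 3298 kb. It exceeded 200 kb for 1030 of the 2588 peaks, 500 kb for 230 and 1000 kb for 43. Most solitary peaks thus lay not far beyond the limit. Of the gaps on the left and right, the nearer had a median of 171 kb and the farther, larger by definition, 381 kb. These medians are over the 2573 peaks with listed peaks on both sides. Isolation refers to the list and not to all binding. The authors' deposited header counts 885361 putative peaks, of which the filter on input removed 98.3%, so unlisted sites may lie between.

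Solitary peaks were often neighbours of each other. Of the 2588, 1865 (72.1%) were next to at least 1 other solitary peak, in 622 runs of 2 or more, while 723 had only peaks of closer spacing beside them. Runs are read from the same positions as the rule, and each gap over 100 kb is shared by the 2 peaks beside it. The share is thus a description, and clustering beyond what the rule entails was not tested. The longest run held 11 solitary peaks over 2.85 Mb of chromosome 12, from 34773448 to 37622453. Its ChIP tags ran from 109 to 358 with a median of 168, which is also the median of all solitary peaks, and input stood above the minimum in 2 of the 11. Solitary peaks also occurred in busy stretches: 523 of them (20.2%) lay in 1 Mb windows with 10 or more peaks, against 60.7% of the other autosomal peaks. The windows with exactly 1 peak numbered 235, and that peak was solitary in 221. The rule itself keeps solitary peaks out of crowded stretches, so both window counts come in part with the choice of members.

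The strongest solitary peaks ranked among the strongest of the genome. By HOMER's peak score, 2 of the top 10 autosomal peaks were solitary, 12 of the top 100 and 164 of the top 1000. These shares are 20% (2.52 to 55.6), 12% (6.36 to 20.02) and 16.4% (14.2 to 18.8), and each interval takes in the 17.2% found over all autosomal peaks. The highest score among solitary peaks was that of a site on chromosome 2 at 92929920 to 92930052. It held 2268 ChIP tags (2176 to 2363, exact Poisson) and 31 of input, which the list gives as 57.7-fold (40.5 to 85.1, exact conditional interval). Its nearest listed peaks lay 138 kb to the left and 702 kb to the right. The next, on chromosome 7 at 86739937 to 86740069, held 2152 ChIP tags and 43 of input, or 39.5-fold (29.2 to 54.7), and its gaps were 129 and 249 kb. Their intervals for the fold overlapped, so these 2 were not ordered at this depth.

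The other 8 of the 10 highest-scoring solitary peaks held 977 to 1384 ChIP tags. A pair was found on chromosome 18: the site at 72148990 to 72149122 had 1384 ChIP tags, and that at 38760949 to 38761081 had 977. Their deposited folds were the same, 32.1 (22.9 to 46.5 and 21.4 to 50.3, respectively). Of another pair, on chromosome 4, the peak at 47859849 to 47859981 reached 48.8-fold with 1325 ChIP tags, and the one at 149150258 to 149150390 reached 23.5-fold (17.3 to 32.6) with 1280. The first of these had input at the minimum, so its fold is a lower limit. The same holds for the peak on chromosome 16 at 49250016 to 49250148, with 1152 ChIP tags and 42.4-fold, and for that on chromosome 5 at 38031384 to 38031516, with 1074 tags and 39.5-fold. The site on chromosome 11 at 35108731 to 35108863, with 1024 tags and 26.9-fold (18.7 to 40.1), was the most isolated of the 10, at 474 kb from the nearest peak.

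One of these 10 stood apart. The peak on chromosome 8 at 20020306 to 20020438 held 1265 ChIP tags but also 121 input tags, the most of any solitary peak, and its fold over input was 8.24 (6.83 to 10.02). It had 127 kb to the left and 2855 kb to the right without a listed peak, and its focus ratio of 0.672 was the lowest of the 10. The solitary peak with the next most input, 74 tags, lay on the same chromosome at 19784586 to 19784718 with a fold of 5.66 (4.43 to 7.32). These 2 sites were close: the gap of 108 kb to its right ended at the same listed peak as the 127 kb to the left of the first. The third, on chromosome 12 at 4233962 to 4234094, had 66 input tags and a fold of 4.24 (3.25 to 5.60).

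Of the 5 most isolated peaks, 4 held fewer ChIP tags than the median solitary peak. The longest distance belonged to the last listed peak of chromosome 17, at 95073380 to 95073512, with 137 ChIP tags, 5.04-fold over the input minimum, and no listed peak for 3298 kb on the only side that has one. A peak on chromosome 15 at 15322414 to 15322546 was 2568 kb from its nearest neighbour and held 109 ChIP tags (90 to 131), the fewest that the list contains. On chromosome 14 at 83651042 to 83651174 and on chromosome 2 at 86931370 to 86931502, peaks of 114 ChIP tags each stood 1991 and 1947 kb from the nearest peak. The fifth differed: the site on chromosome 3 at 72917966 to 72918098 held 321 ChIP tags (287 to 358) at 11.8-fold with gaps of 2309 and 2443 kb. All 5 had input at the minimum.

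At the other end, 7 solitary peaks shared the lowest score of 109. A pair of them, on chromosome 1 at 78767237 to 78767369 and at 170099693 to 170099825, held 109 ChIP tags each at 4.01-fold. The limit of 100 kb separated peaks of no visible difference in strength. The nearest inside were on chromosome 15 at 85822662 (122 ChIP tags, 100.07 kb), on chromosome 3 at 107716095 (198 tags, 100.14 kb) and on chromosome 3 at 53367654 (136 tags, 100.16 kb). The nearest outside were a pair on chromosome 9, at 9375459 (109 tags) and 9475444 (208 tags), 99.98 kb from each other, and a peak on chromosome 7 at 121216391 (151 tags, 99.96 kb). Within 1 kb of the limit the list held 32 peaks outside the choice and 23 solitary ones.

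Peak strength was nearly the same with and without neighbours. Solitary peaks held a median of 168 ChIP tags (164 to 171; quartiles 132 and 236), against 173 (172 to 175; quartiles 134 and 245) for the 12457 autosomal peaks with a neighbour within 100 kb. The difference, solitary minus others, was -5 tags (-9.47 to -1.84), which is small beside the spread of either group, and the 2 distributions overlapped over almost their whole range. By chromosome, the median was lower in solitary peaks on 13 of 19 and higher on 6. In the authors' normalized column, scaled to 10000000 tags, the medians were 4.2 and 4.4.

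**Figure D1:**
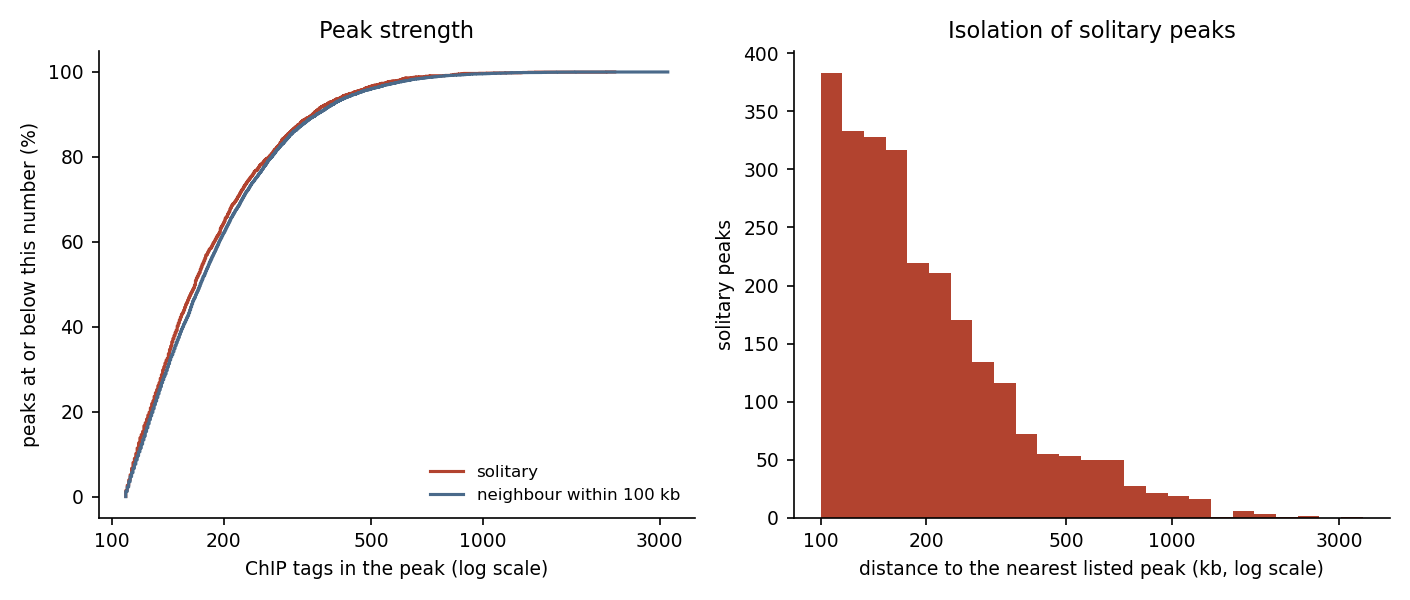
Left, the cumulative percentage of peaks at or below each number of ChIP tags (log axis) for solitary peaks and for autosomal peaks with a neighbour within 100 kb; right, the number of solitary peaks by distance to the nearest listed peak (kb, log axis, bins of equal width on the log scale). The curves nearly coincide, with medians of 168 and 173 tags, and the distances pile up just above 100 kb with a median of 171 kb.

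The fold over input had the same median, 5.63, in solitary peaks (5.55 to 5.74) and in the others (5.59 to 5.68). Input stood above its minimum at only 25.5% of solitary peaks and 34.8% of the others. At the remaining peaks the fold is a lower limit set by ChIP tags, so the equal medians do not show equal enrichment. Reaching 8-fold were 633 solitary peaks, or 24.5%, where 24.1% of all autosomal peaks did. At 20-fold the count was 55, or 2.13%, against 2.34% of all autosomal peaks, and at 5-fold 1702, or 65.8%, against 64.6%. The members' shares lay near the share over all autosomal peaks at each of these 3 levels. More than 500 ChIP tags were found in 88 solitary peaks, or 3.40% (2.74 to 4.17), where the share of all autosomal peaks was 3.89%.

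Input was above its minimum less often at solitary peaks. The input column holds whole tags from 22 upward or the single value 21.4, taken here to be a lower bound that HOMER sets, called the minimum. Input exceeded that minimum at 661 solitary peaks, or 25.5% (23.9 to 27.3), against 33.2% of all autosomal peaks and 34.8% (34.0 to 35.6) of those with a neighbour within 100 kb. Solitary minus others, the difference was -9.25 percentage points (-11.1 to -7.33). Where input exceeded the minimum its median differed little, at 26 tags (26 to 27) in solitary peaks and 27 (27 to 27) in the others.

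The share was lower at greater isolation. It was 28.7% (26.5 to 31.0) for the 1558 solitary peaks at 100 to 200 kb from the nearest peak, 22.0% (19.2 to 25.03) for the 800 at 200 to 500 kb and 16.5% (12.0 to 22.0) for the 230 beyond 500 kb, and the intervals of the last 2 classes overlapped. Among peaks with neighbours it varied less with distance, from 39.3% (36.3 to 42.4) under 1 kb to 33.3% (31.4 to 35.2) at 50 to 100 kb. ChIP tags showed no such course within the solitary peaks, with medians of 167, 168 and 168.5 over the same 3 classes of distance.

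**Figure D2:**
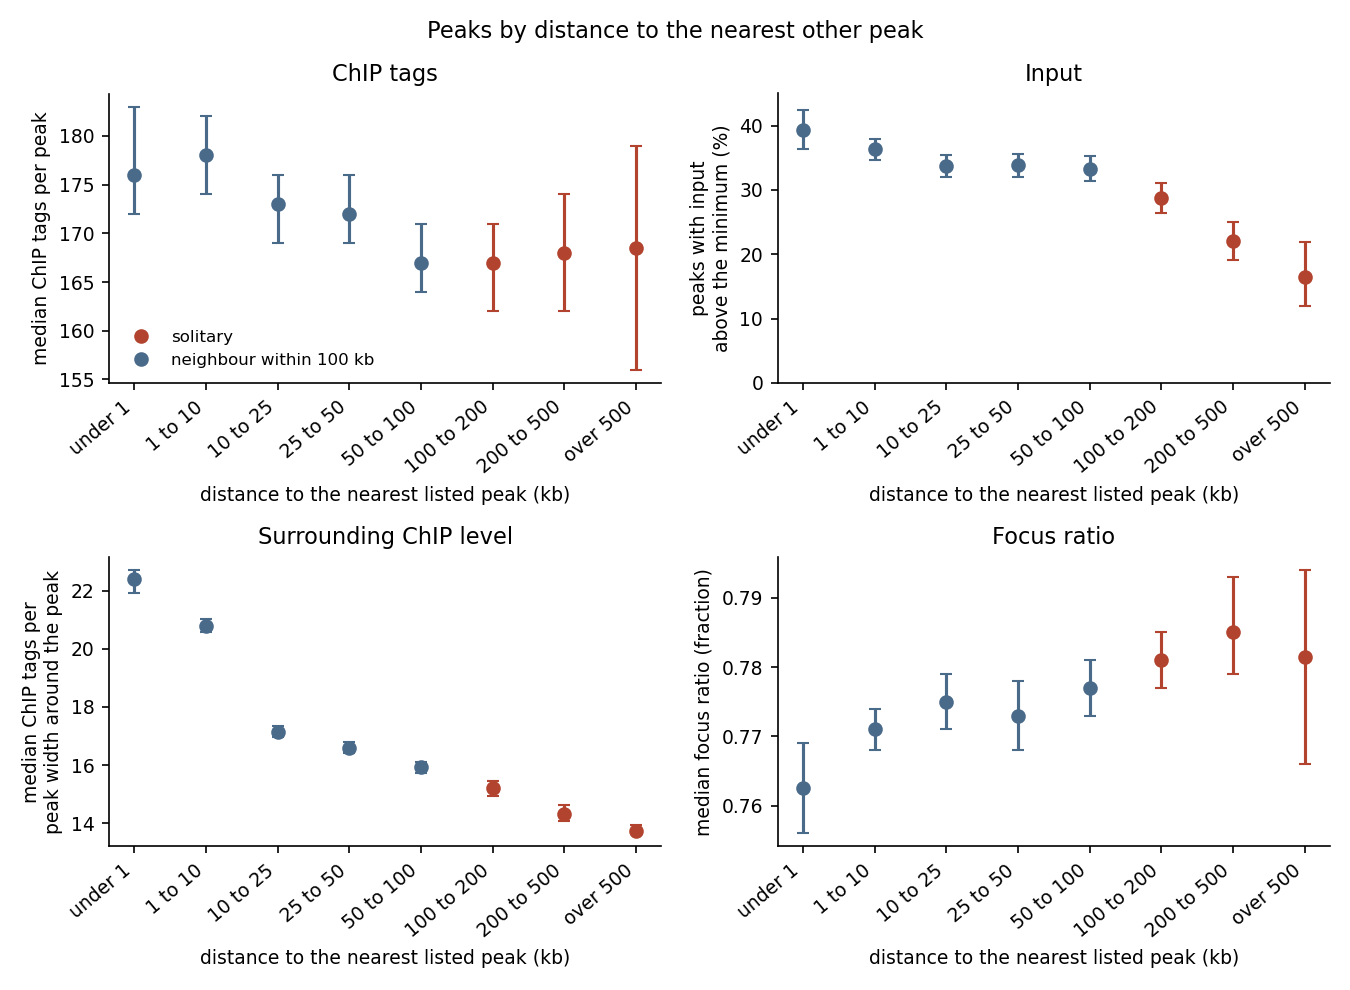
Each panel plots 1 measure (median ChIP tags, percentage of peaks with input above the minimum, median surrounding ChIP level in tags per peak width, median focus ratio) against the distance to the nearest listed peak in 8 classes (kb), with 95% intervals over peaks; the axes other than that of input do not start at 0. In the 3 solitary classes the share with input above the minimum falls from 28.7% to 16.5% and the surrounding level from 15.2 to 13.7, while ChIP tags stay between 167 and 168.5.

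The 4-fold rule asks for more ChIP tags where input is higher, so input and ChIP tags are tied along the list. The comparison was therefore repeated within 6 classes of ChIP tags. The share with input above the minimum was lower in solitary peaks in all 6. At 151 to 200 tags it was 30.3% (26.7 to 34.1) in 630 solitary peaks against 40.1% (38.4 to 41.8) in 3144 others, and at 201 to 300 tags 34.6% (30.6 to 38.7) against 47.6% (45.8 to 49.5). The intervals overlapped in the 2 lowest classes and in the highest, which held 88 solitary peaks. With the other peaks weighted to the tag classes of the solitary ones, their share was 33.9%.

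The surroundings of solitary peaks also held fewer ChIP tags. HOMER compares each peak with the surrounding 10 kb, and dividing the ChIP tags of a peak by this local fold gives the level around it in tags per peak width. That level never fell below 13.5 within rounding, the number that 202780986 tags over a genome of 2000000000 bp give for 133 bp, so it too is read as having a minimum, the genome-wide mean. Its median was 14.7 (14.6 to 14.9) at solitary peaks and 17.9 (17.8 to 18.0) at the others. Listed neighbours within a few kb add to this level and solitary peaks have none, so part of the gap comes with the choice of members. Against the 8203 peaks whose nearest neighbour was 10 to 100 kb away, and thus outside the region compared, the level was still lower, at 14.7 against 16.6 (16.5 to 16.7). The level was graded across the limit. Its median was 17.1 (17.0 to 17.3) at 10 to 25 kb, 15.9 (15.7 to 16.1) at 50 to 100 kb and 15.2 (14.9 to 15.4) at 100 to 200 kb.

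At 450 solitary peaks, or 17.4% (15.9 to 18.9), the surroundings stood at the minimum, where 8.23% of all autosomal peaks did. Among peaks with the nearest neighbour at 10 to 100 kb the share was 8.64% (8.04 to 9.27). There too it was higher at greater distance, from 6.58% (5.73 to 7.51) at 10 to 25 kb to 11.4% (10.2 to 12.8) at 50 to 100 kb. Within the solitary peaks it was higher at greater isolation, from 15.2% at 100 to 200 kb to 19.1% at 200 to 500 kb and 26.1% beyond 500 kb. The median level was lower in solitary peaks in each of the 6 tag classes and on each of the 19 autosomes. The deposited local fold was higher accordingly, with a median of 10.9 (10.7 to 11.1) against 9.70 (9.61 to 9.80) for all others and 10.3 (10.2 to 10.4) for those at 10 to 100 kb.

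**Figure D3:**
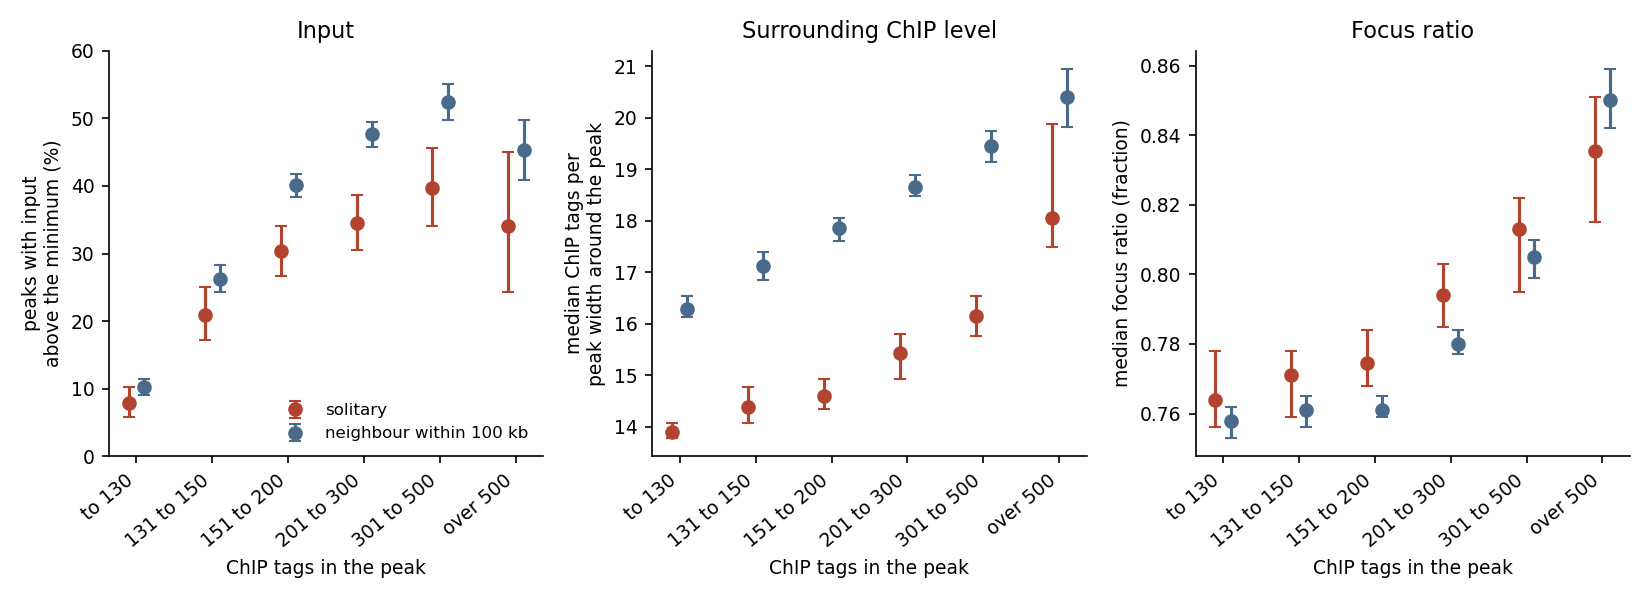
Percentage of peaks with input above the minimum, median surrounding ChIP level (tags per peak width) and median focus ratio for solitary peaks and for peaks with a neighbour within 100 kb, in 6 classes of ChIP tags per peak, with 95% intervals over peaks; the axes for the surrounding level and the focus ratio do not start at 0. Input share and surrounding level are lower for solitary peaks in all 6 classes, and the focus ratio is higher in 5 of 6, with intervals apart in 2 of these.

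The focus ratio is the fraction of tags that sit on the side of the peak centre that their strand predicts for a single binding site, so a value near 1 describes a sharply centred peak. Its median was 0.782 (0.779 to 0.785) in solitary peaks and 0.773 (0.771 to 0.775) in the others, a difference of 0.009 (0.00539 to 0.0126). The quartiles were 0.723 and 0.840 in solitary peaks against 0.716 and 0.830, so the groups overlapped almost fully. A ratio of 0.9 or more was found in 168 solitary peaks, or 6.49% (5.57 to 7.51), where 4.91% of all autosomal peaks had one. A ratio under 0.6 was found in 30, or 1.16% (0.783 to 1.65), where 1.49% of all autosomal peaks had one. Across the limit these values hardly changed. At 50 to 100 kb the share at 0.9 or more was 5.64% (4.75 to 6.64), and at 100 to 200 kb 5.58% (4.50 to 6.84). The medians there were 0.777 (0.773 to 0.781) and 0.781 (0.777 to 0.785). At 200 to 500 kb the share was 8.125% (6.33 to 10.2), and beyond 500 kb 6.96% (4.03 to 11.1).

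The focus ratio varied more with strength than with isolation. In solitary peaks it ran from a median of 0.764 (0.756 to 0.778) at up to 130 ChIP tags to 0.8355 (0.815 to 0.851) above 500. It exceeded that of the other peaks in 5 of the 6 tag classes, with intervals apart in 2 of these and overlapping in 3. In the class above 500 tags it was the other way round, 0.8355 against 0.850 (0.842 to 0.859), with overlapping intervals. The median was higher in solitary peaks on 15 of 19 autosomes. The level around a peak moved with this measure: across the 2588 solitary peaks the Spearman correlation of focus ratio with surrounding level was -0.36, and with ChIP tags it was 0.18. These are descriptions over peaks that share both libraries, and tags enter the surrounding level.

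Solitary peaks were found at a like density on most autosomes. They made up 17.3% ± 2.998 (SD, n = 19 autosomes) of the peaks of a chromosome, from 12.6% (10.6 to 14.9) of 959 on chromosome 11 to 24.1% (20.8 to 27.6) of 619 on chromosome 12. The share was lower on chromosomes with more peaks, as a rule on spacing entails: over 19 chromosomes it had a Spearman correlation of -0.76 with peaks per Mb. Per Mb between the first and last peak, solitary peaks numbered 1.08 ± 0.113 (SD, n = 19 autosomes) and the others 5.27 ± 0.817. The coefficient of variation was 10.5% for solitary peaks and 15.5% for the others. The rule on spacing also ties the density of solitary peaks to that of all peaks. How much of its evenness comes with the choice of members was not tested.

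Chromosome 12 was the densest in solitary peaks with 149, or 1.27 per Mb (1.08 to 1.49), followed by chromosome 10 with 156, or 1.25 (1.06 to 1.46). Chromosome 7 was the sparsest with 127, or 0.855 per Mb (0.713 to 1.02), next to chromosome 17 with 84, or 0.914 (0.729 to 1.13). Chromosomes 10, 12 and 13 had intervals that lay above that of chromosome 7, while most neighbours in this order overlapped. Chromosome 11, which had the most peaks per Mb of all kinds (8.11), was ordinary in solitary ones, with 1.02 per Mb (0.849 to 1.22). The density of solitary peaks had a Spearman correlation of -0.18 with the density of all peaks over the 19 chromosomes. The rule on spacing enters this value too. Chromosome lengths and unmappable sequence did not enter these values.

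**Figure D4:**
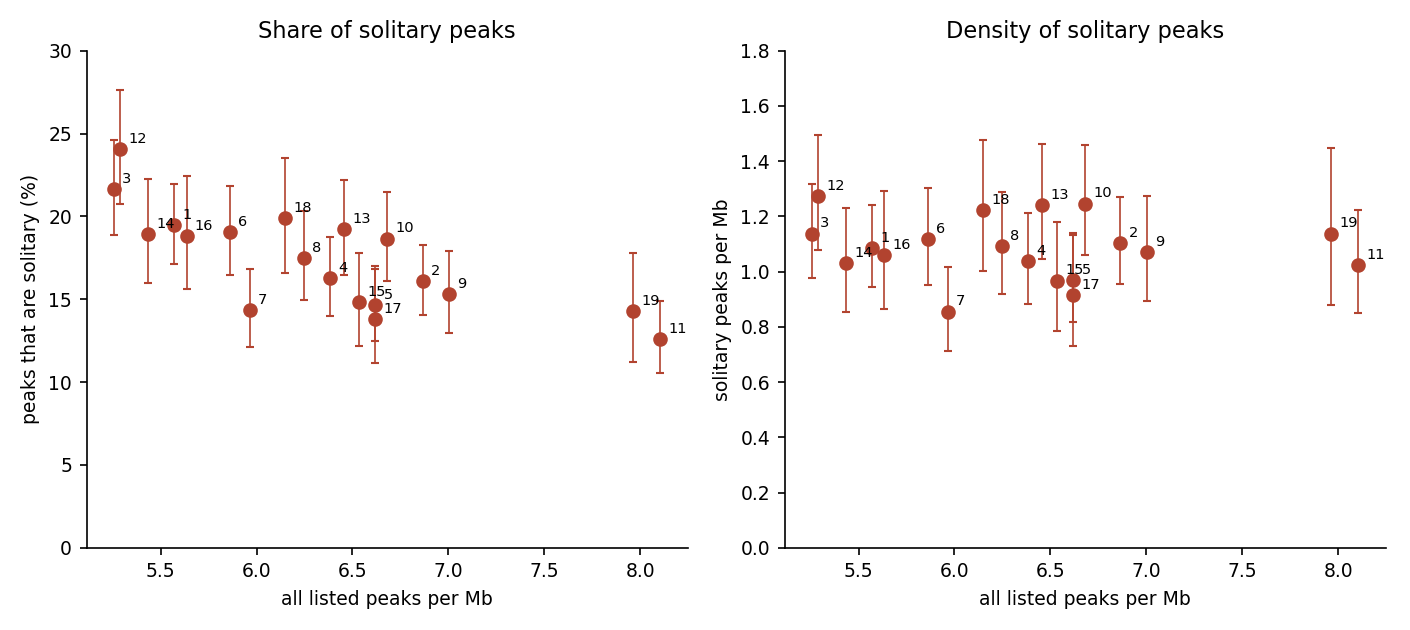
Percentage of peaks that are solitary (left, exact 95% intervals) and solitary peaks per Mb (right, Poisson 95% intervals) against all listed peaks per Mb, 1 point for each of 19 autosomes, labelled by number. The share is highest on the sparse chromosomes 12 and 3 and lowest on chromosome 11, while the density stays between 0.855 and 1.27 per Mb.

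The input of solitary and other peaks was also compared by chromosome. Whether the gap differed between chromosomes beyond counting error was not tested. The share with input above the minimum was lower than in the other peaks on 17 of 19 autosomes, with intervals apart on 7 of these and overlapping on 10. The gap was widest on chromosome 19, at 16.7% (8.62 to 27.9) of 66 solitary peaks against 42.2% (37.3 to 47.2) of the others, and on chromosome 11, at 25.6% (18.1 to 34.4) against 45.2% (41.8 to 48.7). These are also the 2 chromosomes with the most peaks per Mb. On chromosome 14 the share was higher in solitary peaks, at 34.5% (25.98 to 43.7) against 30.8% (26.9 to 35.1), and on chromosome 18 it was 29.0% (20.6 to 38.5) against 28.3% (24.1 to 32.8). On both of these, too, the intervals overlapped. With the other peaks weighted to the chromosomes of the solitary ones, their share was 34.3%, where it was 34.8% without weighting.

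**Figure D5:**
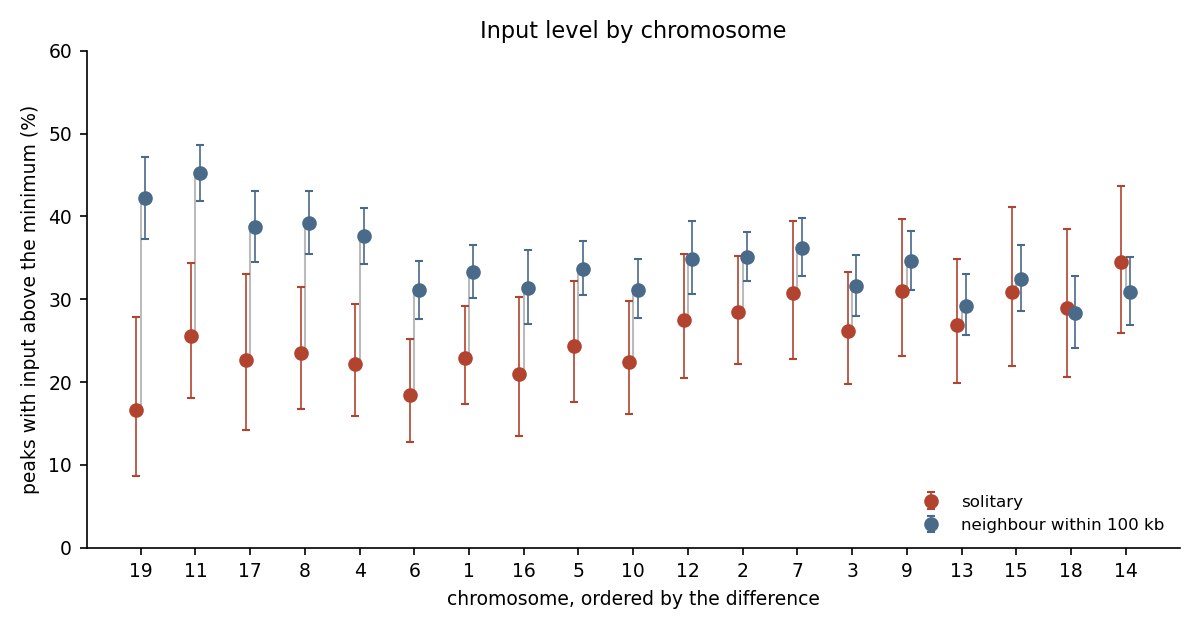
Percentage of peaks with input above the minimum in solitary peaks and in peaks with a neighbour within 100 kb, for each of 19 autosomes ordered by the difference, with exact 95% intervals; grey lines join the 2 values of a chromosome. Solitary peaks are lower on 17 of 19, with intervals apart on 7 of these and the widest gaps on chromosomes 19 and 11; chromosomes 18 and 14 go the other way with overlapping intervals.

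The clonal fold, which sets the tags of a peak against their number of distinct positions, was close to that of other peaks, with a median of 0.85 (0.85 to 0.86) against 0.86 (0.86 to 0.86). It was 0.86, 0.84 and 0.815 in the 3 solitary classes of rising distance. A value above 1 was found in 257 solitary peaks, or 9.93% (8.80 to 11.1), where 11.2% of all autosomal peaks had one. The highest in the autosomal list, 1.96, belonged to a solitary peak on chromosome 11 at 25000095 to 25000227 with 217 ChIP tags and input at the minimum. A solitary peak on chromosome 17 at 6504322 to 6504454 had both a clonal fold of 1.52 and the highest focus ratio of all solitary peaks, 0.991, with 115 ChIP tags. These last 2 were chosen after their values were seen.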

How the data were processed

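Nkx6.1 ChIP and input, 1 library each, were compared in 1 deposited peak list. Per the file headers, HOMER findPeaks was run in factor style at a false discovery rate of 0.001, with peaks of 133 bp, and asked for 4-fold over input and over the local 10000 bp. The submitters' processing notes name Bowtie and mm9, with versions not given in the sources used here. The authors scaled the normalized signal to 10000000 tags, per the file headers, and the fold over input, the local fold and the clonal fold are ratios. The score, the focus ratio (a fraction) and the Poisson p-value are also as deposited by the authors, and the p-value was not used. The deposited ChIP tag signal steps by 0.7883 and was divided by it, which gave whole tags within 0.2 for 100% of peaks. The window in which this column counts tags is not stated. The depth of the ChIP library was 202780986 tags.

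Neighbours were found between peak centres. Shares carry exact Clopper-Pearson intervals, medians order-statistic intervals, and differences intervals joined from both, all at 95%; they treat peaks as independent. Intervals and limits cover counting error only, as tags are not independent molecules. The neighbour search and intervals were tested on simulated data. Named peaks are the 10 highest by score, the 5 with the longest distance, the 3 with the highest fold, the 3 with most input, the 2 lowest by score and the 3 nearest on each side of the limit. Solitary peaks, their measures and lists were chosen with earlier results of these data known, and the surrounding level was added after the files were seen. Other distances, stricter thresholds, joined peaks, chromosome X and other peaks for comparison were tried as alternatives. The 192 peaks on X and 2 mitochondrial peaks were left out. Values were computed in Python 3.11.15 with pandas 2.3.3, numpy 2.4.6 and scipy 1.17.1, and drawn with matplotlib 3.10.9.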

Additional observations from a re-analysis of the deposited data

How the results depend on the processing

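The differences below are solitary minus other peaks. The count of 2588 became 4981 with a limit of 50 kb and 1030 with one of 200 kb. At 8-fold or more and in the upper part by score (above 175), isolation was found anew within the shorter list, so the peaks differ from those of the report: only 633 of 2033 and 1211 of 2565, respectively, are solitary in the full list. Joining and chromosome X gave 2679 and 2681, each with all 2588. Input share (-9.25 percentage points) and surrounding level (-3.14 tags per peak width) stayed lower, and local fold (1.20) and focus ratio (0.009) higher, in every alternative run. The input difference was -5.87 at 50 kb, -13.3 at 200 kb, -3.64 among peaks of 8-fold or more and -11.5 against peaks with a neighbour within 10 kb. The surrounding level differed by -3.42 at 200 kb, -2.69 at 8-fold or more, -2.57 in the upper part by score, -2.78 with peaks under 1 kb apart joined, -6.46 against neighbours within 10 kb, -2.74 with input above the minimum and -1.85 against neighbours at 10 to 100 kb. The local fold differed by 2.10, 1.69 and 2.33 at 8-fold or more, in the upper part and against neighbours within 10 kb, and by 0.62 against those at 10 to 100 kb. The focus ratio differed by 0.004 (-0.00381 to 0.0104) at 8-fold or more, by 0.004 (-0.00183 to 0.009) in the upper part, and by 0.013 both against neighbours within 10 kb and with input above the minimum. ChIP tags differed by -13 at 8-fold or more, -1 (-7.40 to 5.71) in the upper part and -10 against neighbours within 10 kb. The tag difference was -3 (-7.47 to 0.606) against neighbours at 10 to 100 kb, -5 (-10.1 to 1.325) at 200 kb and -6.5 (-12.1 to 1.326) with input above the minimum. At 50 kb it was -8 (-10.2 to -4.39), with peaks joined -5 (-8.61 to -0.877) and with chromosome X -6 (-9.61 to -2.39). The median fold, equal in both groups, differed by -0.11 at 50 kb, 0.24 in the upper part and -0.15 against neighbours within 10 kb. The highest chromosome share exceeded the lowest by 11.5 percentage points, and by 16.4 at 50 kb, 6.20 at 200 kb and 19.6 in the upper part. The share next to another solitary peak was 72.1%, and 84.1% and 59.3% at 50 and 200 kb. The cause of these shifts was not tested. Comparison with neighbours at 10 to 100 kb, weighting, both limits for runs and all settings of the surrounding level were chosen after seeing the data. The input share could not be computed among peaks with input above the minimum, where it is set by the selection. No paired analysis was possible because ChIP and input are single libraries. With input at its minimum for most peaks, the list gives no input below 21.4 tags, and differences there could not be seen.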

Other observations

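Chromosome X was outside the choice of members, and the same distance rule made 93 of its 192 peaks solitary, or 48.4% (41.2 to 55.7). They held a median of 151 ChIP tags (139 to 174) against 146 (131 to 157) in the other 99, and lay a median of 349 kb from the nearest listed peak. Input above the minimum was about as frequent in both, at 9 of 93 (9.68%, 4.52 to 17.6) and 8 of 99 (8.08%, 3.55 to 15.3). The surroundings stood at the minimum in 41.9% of the solitary peaks and 52.5% of the others, against 17.4% and 6.33% on the autosomes. The focus ratio had a median of 0.819 (0.787 to 0.835) in solitary and 0.777 (0.747 to 0.794) in other X peaks. The difference between X and the autosomes was not tested.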
